A study of Mus musculus with 15 samples.

Results

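The genes described here are 8 genes of upper-layer and callosal cortical neurons, Cux1, Cux2, Pou3f2, Pou3f3, Mef2c, Rorb, Lhx2, and Mdga1. They were chosen by name as known markers or transcription factors of these neurons, and all 8 were found by Ensembl identifier among the 19475 genes measured. Each of them passed the filter on low values that left 16507 genes to be tested. Their transcript levels were compared between WT mice and mice carrying the K228E point mutation in Tbr1, a gene that encodes a T-box transcription factor of early-born, deep-layer cortical neurons.

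Neurons of the neocortex are born from the inside out, so that deep-layer neurons arise first and upper-layer neurons migrate past them later. Many upper-layer neurons send axons through the corpus callosum to the other hemisphere, whereas many deep-layer neurons project to the thalamus, brainstem, or spinal cord. Cux1 and Cux2 encode cut-homeodomain factors that mark upper-layer neurons and shape their dendrites and synapses. Pou3f2 and Pou3f3, also known as Brn2 and Brn1, encode POU-domain factors that act together in the production and migration of upper-layer neurons. Mef2c encodes a MADS-box factor of differentiating cortical neurons, and Rorb encodes an orphan nuclear receptor that is best known from layer 4. Lhx2 encodes a LIM-homeodomain factor that gives the early cortex its identity, and Mdga1 encodes a membrane-anchored immunoglobulin-family protein of migrating upper-layer neurons.

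The RNA came from the brains of 15 C57BL/6J embryos of embryonic age E16.5. There were 5 embryos of each genotype (WT, Tbr1 +/K228E, or Tbr1 K228E/K228E), 3 of them female and 2 male. The labels call the tissue brain, and the study's text calls it forebrain. The K228E allele is a knock-in at the endogenous locus, present in every cell of the embryo, and its selection cassette had been removed with a germline Cre. The labels list each library as a separate sample and name no pooling, litter, or sequencing batch, so that p-values measure the spread between these samples. The values are normalized read counts that sum to between 30.5 M and 31.8 M per embryo (M, megareads).

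The libraries differed in the level of markers of brain regions. Summed levels of 11 Hox genes, which mark the hindbrain and are absent from the forebrain, ranged from 4.80 to 3195 in WT, from 0 to 3664 in Tbr1 +/K228E, and from 2.26 to 574.3 in Tbr1 K228E/K228E embryos. The most abundant of them was Hoxb3, and all 11 were listed at 0 in Tbr1 +/K228E replicate 2, whereas none was at 0 in 6 embryos: WT replicates 1, 2, and 4, Tbr1 +/K228E replicate 1, and Tbr1 K228E/K228E replicates 1 and 2. The sum of 6 markers of cortical excitatory neurons, led by Neurod6, a factor of excitatory cortical neurons, ranged from 10145 to 24405 in WT, from 15645 to 25283 in Tbr1 +/K228E, and from 12220 to 25372 in Tbr1 K228E/K228E embryos. Because each library is a mixture of cells, fewer cells of a type and less RNA per cell cannot be told apart in any of the values below.

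In WT embryos, the 8 genes spanned a wide range of levels. Per kilobase of exon, Pou3f3 stood highest with a mean normalized read count of 1066, above 92.3% of the 16503 tested genes with an exon length, and was followed by Lhx2 with 851.6 (89.5%), Pou3f2 with 694.3 (86.4%), and Mdga1 with 565.1 (82.8%). Cux2, Mef2c, and Cux1 lay at 385.1, 319.2, and 273.3 per kilobase, and Rorb was the lowest with 78.8 per kilobase, above only 36.6% of genes. The SD between WT embryos on this scale was 254.1 for Pou3f3, 176.8 for Lhx2, 142.7 for Pou3f2, 37.4 for Mdga1, 35.3 for Cux2, 71.9 for Mef2c, 21.0 for Cux1, and 10.3 for Rorb. Neighbors in this order from Pou3f3 down to Mdga1, and from Cux2 down to Cux1, therefore had overlapping ranges of mean ± SD, whereas the steps from Mdga1 to Cux2 and from Cux1 to Rorb exceeded the spread. The exon length joins the exons of all annotated transcripts of a gene, 20.0 kb for Cux1 and 4.39 kb for Lhx2, and the order depends on it. Without division by length, the WT mean was 5472 for Cux1, above 3879 for Pou3f2 and 3741 for Lhx2.

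Rorb (ENSMUSG00000036192) is a minus-strand gene of chromosome 19 (GRCm38, 18930605 to 19111196). The upstream regions of Rorb, which had the largest differences between genotypes, and of Pou3f2 and Pou3f3, whose levels rose and fell together across embryos, are shown as the 250 bases before the RefSeq start site on GRCm38.p6. Each is written 5′ to 3′ on the strand of the gene, and capitals mark CCAAT on that strand or, as ATTGG, on the other one. The regions are chr19:19111197-19111446 on the minus strand for Rorb, chr4:22488367-22488616 on the minus strand for Pou3f2, and chr1:42695518-42695767 on the plus strand for Pou3f3.
Rorb: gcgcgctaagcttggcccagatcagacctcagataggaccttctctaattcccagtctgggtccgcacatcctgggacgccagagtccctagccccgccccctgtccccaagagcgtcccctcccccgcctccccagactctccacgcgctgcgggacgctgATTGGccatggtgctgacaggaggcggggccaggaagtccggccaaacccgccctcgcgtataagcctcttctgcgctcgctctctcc
Pou3f2: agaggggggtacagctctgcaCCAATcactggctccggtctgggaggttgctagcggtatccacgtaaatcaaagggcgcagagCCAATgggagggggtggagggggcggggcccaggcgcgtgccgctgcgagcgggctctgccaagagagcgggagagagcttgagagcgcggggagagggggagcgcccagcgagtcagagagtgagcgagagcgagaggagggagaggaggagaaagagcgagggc
Pou3f3: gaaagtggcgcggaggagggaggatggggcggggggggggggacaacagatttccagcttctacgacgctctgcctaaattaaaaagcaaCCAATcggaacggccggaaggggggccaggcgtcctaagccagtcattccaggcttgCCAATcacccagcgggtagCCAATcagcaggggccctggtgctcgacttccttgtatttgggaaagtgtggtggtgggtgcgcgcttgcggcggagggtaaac

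RefSeq gave 13 start sites for the 8 genes, and windows of 300 bases around each, of which 50 lie after the start, were searched on both strands. The T-box motif AGGTGTGA was in 0 of the 13 windows, and its core GGTGTGA, which is contained in it, was also in 0 of 13. Among the 32851 windows of all genes, 1.27% held the full motif and 3.98% held the core. CCAAT, which was chosen after the sequences had been seen, was in 5 of the 13 windows, with 2 matches in Pou3f2, 3 in Pou3f3, 1 at the first start site of Rorb, and the rest at 2 start sites of Mef2c, compared with 37.4% of all windows. TATAAA, chosen in the same way, was in windows of Cux2 and Mef2c and in 13.6% of all windows. A match to these letters describes the sequence and not a bound site.

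Rorb was the member with the largest differences in Tbr1 K228E/K228E embryos, where its level was lower. It did not pass correction over all genes in the limma fit used here. The study, which used DESeq2 with an empirical null, listed Rorb among its genes lowered in these embryos relative to WT embryos. Its normalized read count was 921.1, 924.4, 1005, 719.6, and 793.8 in WT replicates 1 to 5. In Tbr1 +/K228E embryos it was 905.4, 1027, 859.2, 1008, and 808.0, and in Tbr1 K228E/K228E embryos it was 658.0, 713.7, 780.6, 696.0, and 601.1. All 5 Tbr1 K228E/K228E embryos therefore lay below all 5 Tbr1 +/K228E embryos, and 4 of them lay below the lowest WT embryo, WT replicate 4. The WT and Tbr1 +/K228E values overlapped throughout.

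The mean Rorb level of WT embryos was 872.8 ± 114.3, that of Tbr1 +/K228E embryos 921.6 ± 94.4, and that of Tbr1 K228E/K228E embryos 689.9 ± 66.6 (SD, n = 5 per genotype). Between the mutant genotypes, the level in Tbr1 K228E/K228E embryos was lower, with a difference of -25.1% and a log2 fold change of -0.42 (95% interval -0.62 to -0.21). The unadjusted p was 0.000605, which ranked 33 among the 16507 genes tested, and after Benjamini-Hochberg correction in limma the adjusted p was 0.303, so that the difference did not pass the threshold of 0.05. For Rorb alone, the two-sided exact permutation test gave p = 0.00794, which is the smallest that 5 against 5 embryos allow. Against WT embryos, the difference was -20.7%, with a log2 fold change of -0.33 (95% interval -0.54 to -0.13), an unadjusted limma p of 0.00348, and an adjusted p of 0.727. The two-sided exact permutation p was 0.0159 for this pair of genotypes. Between Tbr1 +/K228E and WT embryos, the log2 fold change of Rorb was 0.08 (95% interval -0.12 to 0.29). Because the 8 genes were chosen with earlier results of these data known, these p-values are not independent evidence for Rorb.

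The sexes could be set apart, since the labels give the sex of each embryo. Among females, Rorb ranged from 921.1 to 1005 in WT and from 658.0 to 780.6 in Tbr1 K228E/K228E embryos. Among males, it ranged from 719.6 to 793.8 in WT and from 601.1 to 696.0 in Tbr1 K228E/K228E embryos. WT and Tbr1 K228E/K228E embryos thus did not overlap for Rorb within either sex, and no test was run within a sex. Among males, with 2 embryos per genotype, Cux1, Cux2, Pou3f2, Pou3f3, and Mef2c did not overlap between these genotypes either. These genes were higher in the Tbr1 K228E/K228E males. Among females, all members other than Rorb overlapped. The share of all genes without overlap within a sex is not given here. With sex as a covariate in the limma fit of all embryos, the Benjamini-Hochberg adjusted p of Rorb was 0.397 against WT and 0.142 between the mutant genotypes, with the same log2 fold changes, so that Rorb did not pass the threshold there either.

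**Figure D1:**
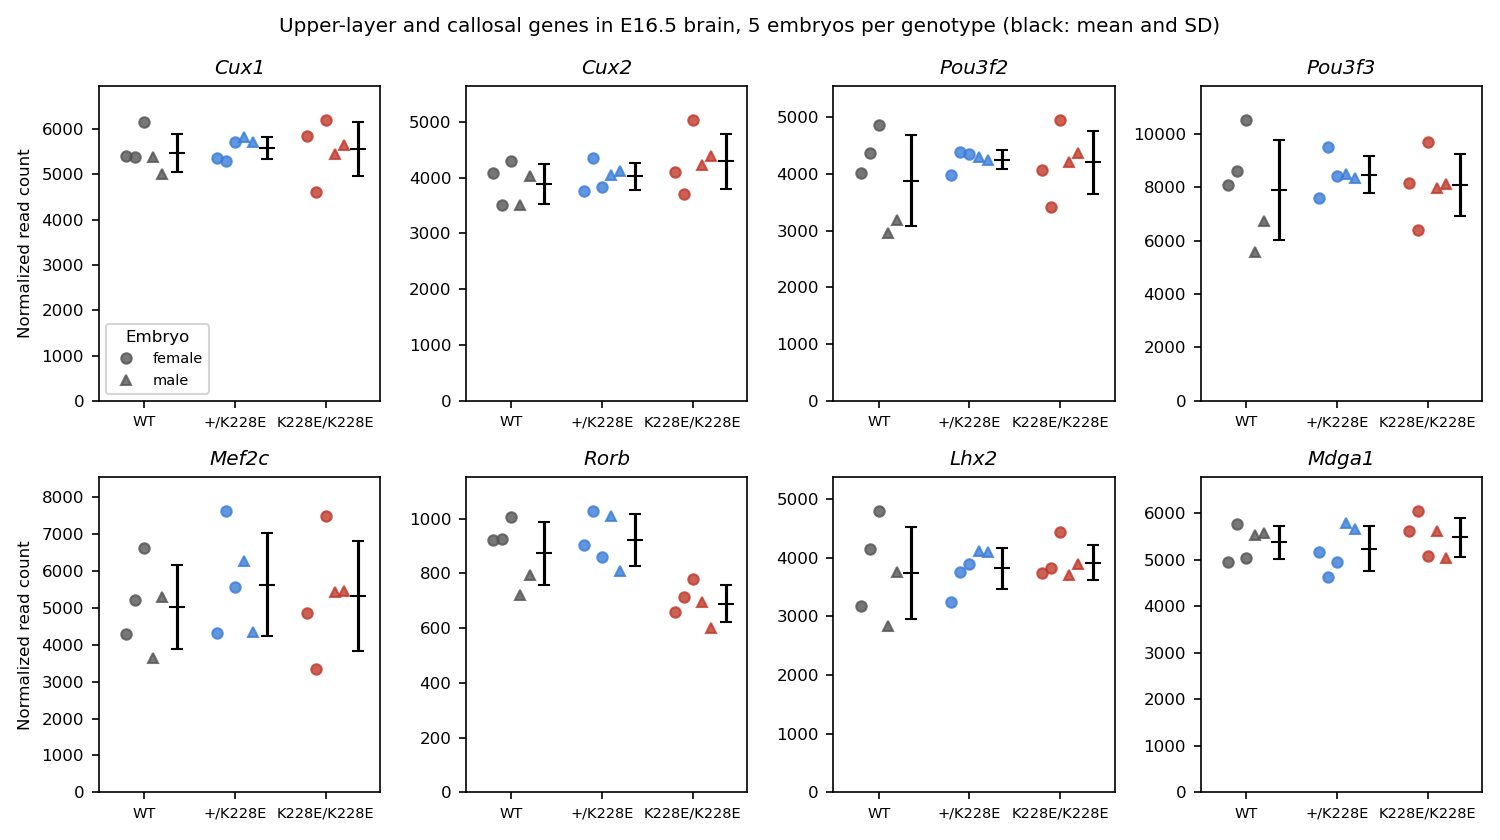
Normalized read count (vertical axes, each from 0) of each of the 8 genes by Tbr1 genotype, with 1 point per embryo, circles for females, triangles for males, and the mean with its SD in black. Rorb in Tbr1 K228E/K228E embryos, from 601.1 to 780.6, lies below all Tbr1 +/K228E embryos, whereas the genotypes overlap for the other 7 genes.

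The levels of the homeodomain pair Cux1 and Cux2 overlapped between genotypes. Cux1 (ENSMUSG00000029705) is a minus-strand gene of chromosome 5 (136248135 to 136567490), and 1.97% of its exon bases overlap Gm16599 on the other strand, which was not among the genes measured. Per embryo, the normalized read count was 5418, 5378, 6166, 5377, and 5021 in WT, 5365, 5299, 5711, 5837, and 5714 in Tbr1 +/K228E, and 5858, 4610, 6208, 5449, and 5642 in Tbr1 K228E/K228E embryos. Cux1 had the smallest difference of the 8 genes between Tbr1 K228E/K228E and WT embryos, with a log2 value of 0.02 and a 95% interval from -0.13 to 0.17.

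Cux2 (ENSMUSG00000042589) is a minus-strand gene of chromosome 5 (121856366 to 122050102). Embryo by embryo, its normalized read count was 4082, 3515, 4291, 3501, and 4024 in WT, 3753, 4348, 3832, 4043, and 4120 in Tbr1 +/K228E, and 4097, 3698, 5035, 4230, and 4380 in Tbr1 K228E/K228E embryos. The highest value was that of Tbr1 K228E/K228E replicate 3, and the genotypes overlapped. Cux2 had a log2 fold change of 0.14 between Tbr1 K228E/K228E and WT embryos (95% interval -0.02 to 0.30), the largest positive one among the 8 genes, and the two-sided exact permutation p was 0.151.

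The POU-domain pair varied more among WT embryos than between genotypes. Pou3f2 (ENSMUSG00000095139) is a minus-strand gene of chromosome 4 (22482780 to 22488366). The normalized read counts were 4018, 4359, 4866, 2959, and 3193 in WT, 3975, 4380, 4352, 4293, and 4245 in Tbr1 +/K228E, and 4059, 3411, 4952, 4210, and 4375 in Tbr1 K228E/K228E embryos. The 2 lowest values were those of the WT males, and the WT SD of 797 compares with 161.8 in Tbr1 +/K228E embryos.

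Pou3f3 (ENSMUSG00000045515) is a plus-strand gene of chromosome 1 (42695768 to 42703176). Levels in single embryos were 8080, 8590, 10522, 5564, and 6741 in WT, 7586, 9500, 8431, 8509, and 8326 in Tbr1 +/K228E, and 8164, 6400, 9705, 7981, and 8132 in Tbr1 K228E/K228E embryos. WT replicate 3 was the highest of the 15 embryos and WT replicate 4 the lowest. Between Tbr1 K228E/K228E and WT embryos, the log2 fold change was 0.13 (95% interval -0.13 to 0.39) for Pou3f2 and 0.05 (95% interval -0.24 to 0.35) for Pou3f3.

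Mef2c and Lhx2 also overlapped between all genotypes. Mef2c (ENSMUSG00000005583), on the plus strand of chromosome 13 from 83504034 to 83667080, had a normalized read count of 4294, 5210, 6627, 3650, and 5299 in WT, 4329, 7612, 5565, 6275, and 4348 in Tbr1 +/K228E, and 4847, 3331, 7482, 5427, and 5462 in Tbr1 K228E/K228E embryos. The lowest of all 15 values, in replicate 2, and a value close to the highest, in replicate 3, both came from Tbr1 K228E/K228E embryos. Against WT, Mef2c had the widest 95% interval of the 8 genes in these embryos, from -0.38 to 0.51 around a log2 fold change of 0.06.

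Lhx2 (ENSMUSG00000000247), on the plus strand of chromosome 2 from 38339281 to 38369733, had a normalized read count of 3177, 4149, 4793, 2836, and 3749 in WT, 3250, 3753, 3893, 4113, and 4097 in Tbr1 +/K228E, and 3732, 3831, 4433, 3703, and 3893 in Tbr1 K228E/K228E embryos. The Tbr1 K228E/K228E embryos lay inside the range of the WT embryos. Their log2 fold change relative to WT embryos was 0.09 (95% interval -0.16 to 0.33).

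Mdga1 (ENSMUSG00000043557), the one cell-surface protein gene among the members, is a minus-strand gene of chromosome 17 (29827949 to 29970087). By embryo, the counts were 4956, 5772, 5047, 5534, and 5576 in WT, 5161, 4627, 4941, 5785, and 5670 in Tbr1 +/K228E, and 5623, 6042, 5079, 5618, and 5027 in Tbr1 K228E/K228E embryos. These values overlapped throughout, and the log2 fold change between Tbr1 K228E/K228E and WT embryos was 0.03 (95% interval -0.12 to 0.17).

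None of the 8 genes passed the threshold in any comparison (limma with Benjamini-Hochberg correction, adjusted p under 0.05). The model of the study differed and did list Rorb as lowered in Tbr1 K228E/K228E relative to WT embryos. Between Tbr1 +/K228E and WT embryos, 0 of 8 passed, as did 0 of all genes (0%), and 0 of 8 had an unadjusted p under 0.05, compared with 295 of all genes (1.79%). Between Tbr1 K228E/K228E and WT embryos, 0 of 8 passed, compared with 21 of all genes (0.127%), and 1 of 8, Rorb, had an unadjusted p under 0.05, compared with 534 of all genes (3.23%). Between Tbr1 K228E/K228E and Tbr1 +/K228E embryos, 0 of 8 passed, compared with 13 of all genes (0.0788%), and 1 of 8, again Rorb, had an unadjusted p under 0.05, compared with 544 of all genes (3.3%).

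Embryos of the compared genotypes did not overlap for 0 of 8 genes in Tbr1 +/K228E relative to WT embryos, compared with 43 of all genes (0.26%). The same was true of 0 of 8 in Tbr1 K228E/K228E relative to WT embryos, compared with 98 of all genes (0.594%), and of 1 of 8, Rorb, between the mutant genotypes, compared with 145 of all genes (0.878%). In each comparison with WT embryos, 7 of the 8 genes had a positive log2 fold change that missed the threshold, and the median over the 8 was 0.07 in Tbr1 +/K228E and 0.06 in Tbr1 K228E/K228E embryos. The median over all tested genes was -0.0021 and -0.0023, respectively, and 48.8% and 48.7% of them were positive. Both comparisons share the same WT embryos. The negative members were Mdga1 in Tbr1 +/K228E embryos, with -0.04, and Rorb in Tbr1 K228E/K228E embryos. Several signs turned under alternatives given at the end. Marker lists differed too in Tbr1 +/K228E relative to WT embryos, with 0 genes past the threshold. The median was 0.18 for cortical excitatory neurons (6 of 6 higher), 0.16 for dividing cells (7 of 7), and 0.24 for GABAergic neurons (6 of 9). It was -0.12 for the diencephalon (5 of 6 lower) and -2.16 for the hindbrain (11 of 11). Lists from outside the cortex were also higher, with 1.04 for the choroid plexus (3 of 5 higher) and 0.57 for the meninges (6 of 7). The other lists stood at 0.14 for intermediate progenitors, 0.10 for deep-layer neurons, 0.04 for endothelium, 0.03 for radial glia, and -0.09 for microglia. The 15 other upper-layer and callosal genes and the 9 paralogs of the members both had a median of 0.02.

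**Figure D2:**
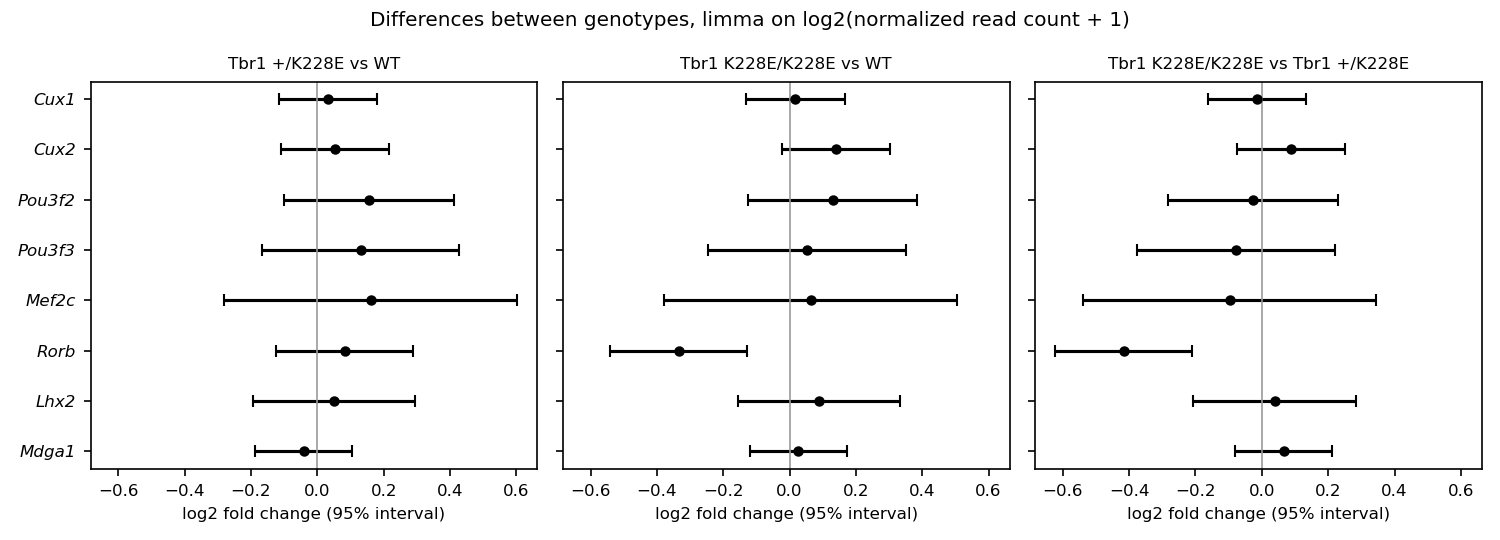
Log2 fold change (horizontal axis) of the 8 genes in the 3 comparisons between genotypes, with points for the limma estimate and bars for its 95% interval. The interval of Rorb lies below 0 in both comparisons of Tbr1 K228E/K228E embryos, and the intervals of the other 7 genes include 0.

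Tbr1 itself was measured in the same libraries. Its normalized read count was 3517, 4122, 4871, 2097, and 3079 in WT, 4738, 8543, 6337, 6743, and 4985 in Tbr1 +/K228E, and 11530, 7148, 16015, 10671, and 11467 in Tbr1 K228E/K228E embryos. The Tbr1 K228E/K228E embryos all exceeded the WT embryos, by 1.69 on the log2 scale (limma, Benjamini-Hochberg adjusted p = 0.00437). The steps in between did not pass the threshold. Tbr1 differed by 0.85 on the log2 scale both between Tbr1 +/K228E and WT embryos and between the mutant genotypes, with adjusted p-values of 0.999 and 0.614 (limma, Benjamini-Hochberg). Single embryos overlapped in both steps, with WT replicate 3 above Tbr1 +/K228E replicate 1 and Tbr1 K228E/K228E replicate 2 below Tbr1 +/K228E replicate 2. A point mutation is not visible in these levels.

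Rorb did not follow the other members in Tbr1 K228E/K228E embryos, a description made after the values had been seen. As a percentage of the summed level of the other 7 genes, Rorb stood at 2.48 ± 0.14 (SD, n = 5) in WT, with a range from 2.36 to 2.71, and at 2.49 ± 0.21 (SD, n = 5) in Tbr1 +/K228E embryos, with a range from 2.21 to 2.71. In Tbr1 K228E/K228E embryos the percentage was 1.89 ± 0.24 (SD, n = 5), with a range from 1.63 to 2.28. WT and Tbr1 K228E/K228E embryos did not overlap in this percentage, whereas the highest Tbr1 K228E/K228E embryo lay above the lowest Tbr1 +/K228E embryo.

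**Figure D3:**
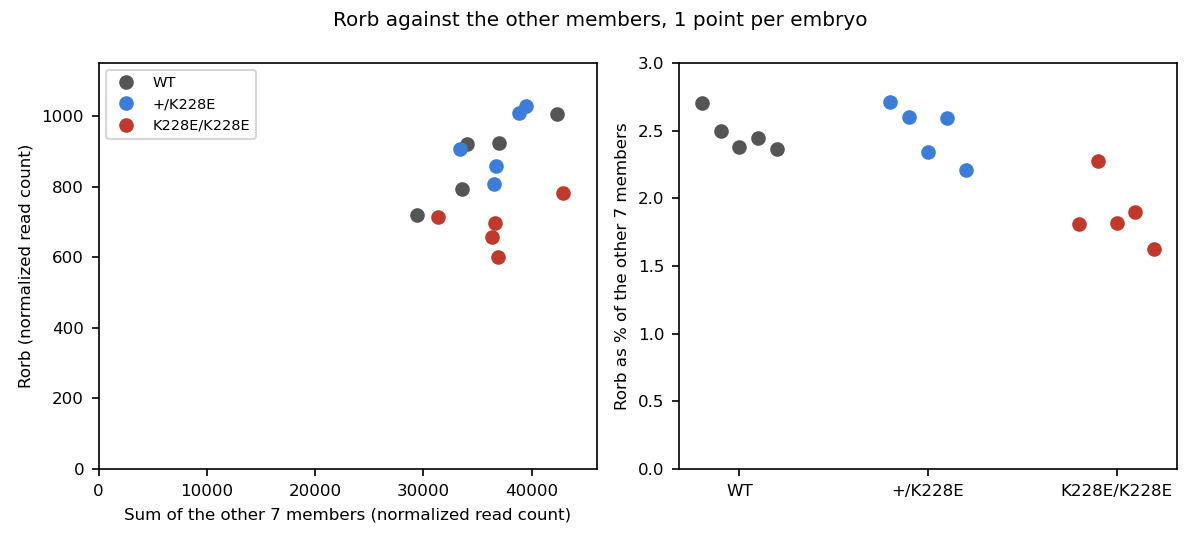
Left, normalized read count of Rorb (vertical axis) against the sum of the other 7 genes (horizontal axis), and right, Rorb as a percentage of that sum by genotype, with 1 point per embryo and both scales from 0. The Tbr1 K228E/K228E embryos lie between 1.63% and 2.28%, below the lowest WT embryo at 2.36%.

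Within genotypes, most of the 8 genes rose and fell together from embryo to embryo. After the genotype means of log2 values had been subtracted, 21 of the 28 pairs of genes had a Pearson r above 0 over the 15 embryos, with a median of 0.60, and 17 of 28 had an adjusted permutation p under 0.05 (10 of 28 for Spearman's rho). The closest pair was Pou3f2 and Pou3f3 (r = 0.97, rho = 0.92, permutation p = 1e-05, the smallest that the permutations can give, adjusted p = 0.00028), and r was 0.94 without the 2 embryos farthest from the median. Pou3f3 and Mef2c followed among pairs outside the POU family, with r = 0.80 and rho = 0.72 (permutation test, adjusted p of r = 0.00392), and r was 0.77 without the 2 embryos farthest from the median. Rorb correlated best with Pou3f3 (r = 0.69, rho = 0.73, permutation test, adjusted p of r = 0.0121), but r was 0.44 without the 2 farthest embryos, so that this relation rests in part on them. Without the 2 farthest embryos, r also fell from 0.59 to 0.25 for Cux1 and Mef2c, and from 0.71 to 0.38 for Pou3f2 and Lhx2. For Mef2c and Rorb it rose from 0.57 to 0.65. The counts and the median of r over the 28 pairs hold for all 15 embryos. The permutations moved the centered values freely between genotypes, so that their p-values can be too small and pairs near the cutoff are uncertain.

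Mdga1 was the exception, with an r of 0 or below with each of the other 7 genes. Its lowest r was with Cux2 (r = -0.61, rho = -0.59, permutation test, adjusted p of r = 0.0329), and this r was -0.47 without the 2 embryos farthest from the median. All pairs share the same libraries, whose regional makeup differed, and its part in these correlations was not tested.

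Marker lists of other cell types and regions moved with the members, and their part in the levels of the members was not tested apart from the cortical covariate that follows. Over the same 15 embryos, the mean log2 level of 6 markers of cortical excitatory neurons correlated with Mef2c at r = 0.96 (rho = 0.97), and that of 10 deep-layer markers correlated with Lhx2 at r = 0.93 (rho = 0.85). Markers of dividing cells and of GABAergic neurons correlated with Pou3f3 at r = 0.87 (rho = 0.89) and r = 0.86 (rho = 0.91). The 11 Hox genes correlated with Lhx2 at r = -0.76 (rho = -0.72), and the GABAergic markers with Mdga1 at r = -0.66 (rho = -0.65). Without the 2 farthest embryos, these 6 values of r ranged in size from 0.638 to 0.964 and kept their signs, with adjusted permutation p-values from 0.00028 to 0.023 over all embryos. Of 56 such relations, 29 had an adjusted permutation p under 0.05, including 7 of 8 genes with the deep-layer list and 0 of 8 with 8 markers of radial glia, the progenitors of cortical neurons. Rorb correlated with the cortical excitatory markers at r = 0.61 (rho = 0.60, permutation test, adjusted p = 0.0375), and at r = 0.53 without the 2 farthest embryos.

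**Figure D4:**
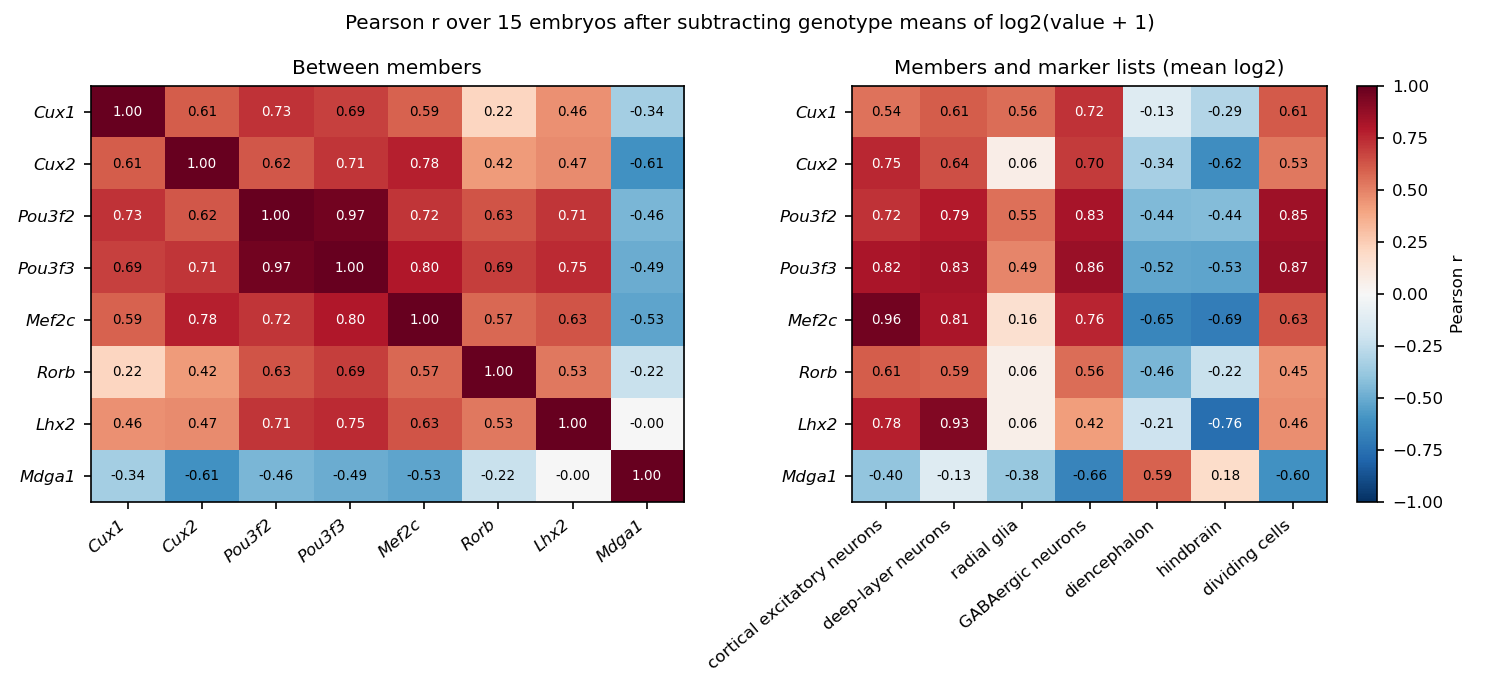
Pearson r over 15 embryos after genotype means had been subtracted, between the 8 genes (left) and between the genes and the mean log2 level of 7 marker lists (right), with red above 0 and blue below 0. Pou3f2 and Pou3f3 reach 0.97, and the row of Mdga1 on the left holds no value above 0 other than its own.

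With the cortical excitatory level of each embryo added to the fit as a covariate, an alternative added after seeing the data, Rorb differed by -0.35 on the log2 scale between Tbr1 K228E/K228E and WT embryos and by -0.38 between the mutant genotypes. The adjusted p-values of limma were then 0.1313 and 0.1096, respectively, and 0 of the 8 genes passed the threshold. The covariate was the mean log2 level of Neurod2, Neurod6, Slc17a7, Emx1, and Bhlhe22, and Nrgn was left out of it.

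The genes whose levels followed each member most closely were sought among all 16507 tested genes, by Pearson r over the 15 embryos after genotype means had been subtracted. For Rorb these were Crebrf (r = 0.90), Frmd5 (0.89), and Zscan29 (0.89). For Pou3f3 they were Insm1 (0.99), a zinc-finger factor of neurogenic progenitors, Cdkn1b (0.98), a cyclin-dependent kinase inhibitor, and Kif26a (0.97), and for Pou3f2 they were Pou3f3 (0.97), Txnrd1 (0.97), and Insm1 (0.95). For Mef2c they were Sipa1l1 (0.98), Zbtb18 (0.97), and Tcf4 (0.97), of which the latter pair encodes transcription factors of cortical neurons.

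For Cux1 the closest genes were Xpo5 (0.95), Cct2 (0.94), and Pax6 (0.91), a factor of radial glia. For Cux2 they were Htr3a (0.93), a serotonin receptor subunit, Wwc1 (0.91), and Mbip (0.91). For Lhx2 they were Pou2f1 (0.94), Taf2 (0.93), and Kdm1a (0.93), and for Mdga1 they were Rnf123 (0.89), Rundc3a (0.85), and Zfpm1 (0.84). These are the highest of many values, and no test was attached to them.

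Other genes of upper-layer and callosal neurons were compared in the same fit. Of 15 such genes, 0 passed the threshold in any comparison, and in Tbr1 K228E/K228E relative to WT embryos 7 had a positive and 8 a negative log2 fold change, with a median of -0.0021.

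The smallest p among the 15 in that comparison was that of Inhba, which encodes a subunit of activin. Per embryo, the normalized read count was 90.5, 88.0, 129.7, 51.8, and 80.7 in WT, 91.7, 145.1, 134.7, 131.4, and 75.02 in Tbr1 +/K228E, and 162.0, 73.3, 214.5, 177.8, and 166.8 in Tbr1 K228E/K228E embryos. Of the Tbr1 K228E/K228E embryos, 4 exceeded all WT embryos and replicate 2 did not, and the log2 fold change of 0.82 (SE 0.29, unadjusted p = 0.0121) had an adjusted p of 1 (limma, Benjamini-Hochberg). Plxnd1, a semaphorin receptor, followed with a log2 fold change of -0.24 (SE 0.10) and an adjusted p of 1 (limma, Benjamini-Hochberg).

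Among 9 paralogs of the members, 0 passed the threshold in any comparison. Pou3f1, a further POU-domain factor of neurons, had a normalized read count of 988.1, 1155, 1167, 884.2, and 670.0 in WT, 1056, 1119, 1061, 1110, and 1233 in Tbr1 +/K228E, and 1226, 983.7, 1414, 1229, and 1201 in Tbr1 K228E/K228E embryos. Of the Tbr1 K228E/K228E embryos, 4 exceeded all WT embryos, and the log2 fold change against WT was 0.33 (SE 0.13), with an adjusted p of 1 (limma, Benjamini-Hochberg). The second smallest p was that of Pou3f4, the paralog on the X chromosome, with a log2 fold change of 0.15.

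Of 10 deep-layer markers, Tbr1 was the only one past the threshold, and it rose in Tbr1 K228E/K228E relative to WT embryos. Of 6 markers of cortical excitatory neurons, 1 passed, Nrgn, which encodes the calmodulin-binding protein neurogranin. The normalized read count of Nrgn was 267.3, 347.7, 398.1, 503.6, and 536.9 in WT, 372.9, 536.3, 457.6, 667.6, and 425.6 in Tbr1 +/K228E, and 682.4, 848.6, 1277, 892.3, and 804.1 in Tbr1 K228E/K228E embryos. All Tbr1 K228E/K228E embryos exceeded all others, and Nrgn rose by 1.14 (SE 0.20) on the log2 scale relative to WT embryos (limma, Benjamini-Hochberg adjusted p = 0.0385). In that comparison, the members other than Rorb had log2 fold changes between 0.02 and 0.14.

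The remaining lists held 0 genes past the threshold in each of the 3 comparisons. They comprised 7 genes of intermediate progenitors, 8 of radial glia, 9 of GABAergic neurons, 6 of the diencephalon, 11 of the hindbrain, 8 of microglia, 7 of endothelium, 7 of meninges, 5 of the choroid plexus, and 7 of dividing cells. Between Tbr1 K228E/K228E and WT embryos, the median log2 fold change was 0.02 for intermediate progenitors, -0.07 for radial glia, 0.11 for GABAergic neurons, and -0.08 for dividing cells, against -0.0023 for all genes. It was -0.11 for microglia, -0.10 for endothelium, 0.12 for the diencephalon, -0.09 for the choroid plexus, -0.62 for the meninges, and -1.84 for the hindbrain. The hindbrain and meninges lists differed more between embryos of a genotype than between genotypes, with summed levels in WT embryos from 4.80 to 3195 and from 406.4 to 31510.

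The genes with the smallest p in these lists, none past the threshold, had the following log2 fold changes between Tbr1 K228E/K228E and WT embryos. Hes6 and Neurog1, factors of neurogenic progenitors, stood at 0.06 and -0.24, and Slc1a3 and Hes1, a glutamate transporter and a Notch target of radial glia, at -0.13 and -0.14. Sst and Lhx6 of interneurons stood at 0.11 and 0.17, and Cdk1 and Ccnb1 of dividing cells at -0.12 and -0.11. Gbx2 of the diencephalon stood at -0.27, and Hoxd4 and Hoxb4 of the hindbrain at -1.86 and -2.17. C1qa and Csf1r of microglia stood at -0.35 and -0.29, Flt1 and Egfl7 of endothelium at -0.14 and -0.24, Col1a1 and Foxc1 of meninges at -1.96 and -0.57, and Otx2 and Ttr of the choroid plexus at -0.10 and -0.45. Each of these genes had an adjusted p of 1 (limma, Benjamini-Hochberg).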

How the data were processed

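RNA-Seq was carried out on brain RNA from 15 E16.5 embryos, and groups were taken from the sample labels. Per the labels and the methods of the study, the authors quantified reads with Salmon 0.11.2 (quasi-mapping, corrected for GC bias, GRCm38), summed them to genes with tximport, and divided them by DESeq2 1.22.2 size factors in R 3.5.3. The authors deposited the resulting normalized signal per gene and embryo, which is not a whole count, so that no count model was fitted, and the read depth of each embryo is not given by it. The library kit does not mark strand.

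Of 19475 genes, 19469 matched GENCODE M21. Genes with a mean of 5 or more (16507) entered limma 3.58.1 (eBayes with a trend, R 4.3.3) on log2(value + 1), with all 15 embryos in a single fit on genotype and Benjamini-Hochberg correction at 0.05. Fold changes on this scale understate those of low genes. Single genes were also compared by exact permutation tests, and correlations by 100000 permutations (Python 3.11.15, scipy 1.17.1). The permutations for correlations ignored genotype after its means had been subtracted, so that their p-values can be too small. In simulated data for Tbr1 K228E/K228E and WT embryos with 16507 genes, 63 of 100 genes with a true log2 change of 0.5 and 89 of 100 with a change of 1 were recovered, with 7 calls among unchanged genes. The simulation thus held 100 changed genes of each size, whereas 21 genes passed the threshold in the real comparison. With fewer changed genes the Benjamini-Hochberg cutoff is stricter, so that these rates can overstate the sensitivity in the real data. The effect of regional differences between libraries on these rates was not tested.

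The members and marker lists were chosen with earlier results of these data known. Named genes are the 8 members, Tbr1, the genes of each list past the threshold or, where none passed, those with the 2 smallest p-values in Tbr1 K228E/K228E relative to WT embryos, and the 3 genes most like each member. Some results of these lists are not reported here. The alternatives were other pseudocounts (0.1 and 10), no filter or a minimum mean of 50, upper-quartile or quantile scaling, sex as a covariate, a replicate block, a fit of 2 genotypes alone, robust eBayes, an empirical null, leaving out each embryo, and a cortical score as a covariate.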

Additional observations from a re-analysis of the deposited data

Results flagged for a closer look

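Among 24 tests of the 8 genes in the 3 genotypes, 1 embryo stood far from the others of its genotype. Lhx2 in Tbr1 K228E/K228E replicate 3 was 4433, and its gap to the next embryo was 0.74 of the whole range of the genotype. Chance marks about 1 in 20 such groups.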

How the results depend on the processing

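The number of members past the threshold stayed at 0 in each of the 3 comparisons under all 27 alternatives, 15 of which left out an embryo. Rorb kept its direction in Tbr1 K228E/K228E embryos. Without single embryos, its log2 fold change ranged from -0.40 to -0.28 relative to WT and from -0.46 to -0.37 relative to Tbr1 +/K228E embryos, and its lowest adjusted p under any alternative was 0.1313 and 0.1096. The number of all genes past the threshold moved more. In Tbr1 K228E/K228E relative to WT embryos it was 21, but 12 in a fit of the 2 genotypes alone, 42 with the empirical null, 42 with the cortical covariate, and 12 to 22 without single embryos (12 or 13 without WT replicate 1 or 2 or Tbr1 K228E/K228E replicate 3 or 4). Between the mutant genotypes it was 13, but 33 with the cortical covariate, and 6 to 17 without single embryos (6 to 8 without any of the 10 mutant embryos). In Tbr1 +/K228E relative to WT embryos it was 0, and 1 with the cortical covariate. With the same covariate, Tbr1 itself passed in Tbr1 +/K228E against WT embryos (log2 fold change 0.65, limma adjusted p = 0.00465) and between the mutant genotypes (0.98, adjusted p = 1.9e-05). The cause of these shifts was not tested.

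With the replicate block, 2 genes passed between the mutant genotypes, and the adjusted p of Rorb was 0.218 there and 0.512 relative to WT embryos. In the labels, embryos of the same number share only their sex, so the numbers were not taken as a pairing. Their deviations from the genotype means correlated on average at 0.07, 0.24, and 0.01 in the 3 comparisons. Single values ranged from -0.21 to 0.22 in Tbr1 +/K228E relative to WT embryos and from -0.23 to 0.35 between the mutant genotypes. In Tbr1 K228E/K228E relative to WT embryos all were positive, from 0.02 to 0.51, and the reason was not tested.

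Small fold changes turned direction. With the cortical covariate, those of Cux1, Mef2c, and Lhx2 between Tbr1 +/K228E and WT embryos were -0.0013, -0.0136, and -0.0288, and those of Cux1, Pou3f2, and Mef2c between the mutant genotypes were 0.0084, 0.0319, and 0.0232. Without single embryos, the ranges between Tbr1 +/K228E and WT embryos were -0.0432 to 0.1461 for Lhx2 and -0.0778 to 0.0027 for Mdga1. Between Tbr1 K228E/K228E and WT embryos they were -0.0245 to 0.0829 for Cux1, -0.0651 to 0.1647 for Pou3f3, -0.0714 to 0.2204 for Mef2c, -0.0049 to 0.1844 for Lhx2, and -0.0103 to 0.056 for Mdga1. Between the mutant genotypes they were -0.0562 to 0.0511 for Cux1, -0.0876 to 0.0467 for Pou3f2, -0.1468 to 0.0033 for Pou3f3, -0.232 to 0.0598 for Mef2c, and -0.0188 to 0.0661 for Lhx2. Other fold changes kept their direction but moved in size without single embryos. Between Tbr1 K228E/K228E and WT embryos, the range was 0.0385 to 0.2179 for Pou3f2 and 0.0811 to 0.1924 for Cux2. For Rorb between Tbr1 +/K228E and WT embryos it was 0.0154 to 0.1359. Upper-quartile and quantile scaling moved the median of all genes by less than 0.01.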
